A study of Homo sapiens with 6 samples.

Results

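Host transcripts of small RNAs and long nuclear RNAs were examined in MCF10A cells that had received a miR-221 and miR-222 mimic. They were chosen by gene name: SNHG (small nucleolar RNA host gene) followed by a number, names that start with MIR and end in HG (microRNA host gene), and GAS5, MALAT1, NEAT1, DLEU1, DLEU2, MEG3, H19, TUG1, EPB41L4A-AS1 and DANCR. By this rule 188 of 54613 probe sets were members, and they belonged to 83 of the 21357 gene symbols on the array. Of these, 53 probe sets of 27 genes were read as snoRNA hosts (the SNHG genes, GAS5, EPB41L4A-AS1 and DANCR), 97 probe sets of 51 genes as microRNA hosts (the MIR..HG genes, DLEU2 and H19), and 38 probe sets of 5 genes as other long noncoding RNAs (MALAT1, NEAT1, DLEU1, MEG3 and TUG1).

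MCF10A cells are an immortalized line grown from normal human breast epithelium, and they do not form tumours. The mimic group had 3 samples given the miR-221 and miR-222 mimic, and the control group had 3 given the miR-control, with 1 single-colour array for each biological replicate. Both groups were the same cell line and both had received a small RNA. Neither the amount of mimic, the interval before harvest nor the sequence of either reagent was given in the sources used here. Each value is a log2 intensity per probe set, the summary of a group of short probes for 1 transcript region.

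Small nucleolar RNAs (snoRNAs) guide the chemical modification of ribosomal and spliceosomal RNA, and most human snoRNAs are cut out of introns of a host transcript. The spliced host RNA is often a short-lived noncoding RNA whose start resembles that of ribosomal protein messenger RNAs. MicroRNA hosts are long transcripts from which a microRNA hairpin is cut in the nucleus. MALAT1 lies in nuclear speckles, and NEAT1 is the scaffold RNA of paraspeckles. The array reads the long host RNA after labelling of total RNA, not the mature small RNA.

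The microRNAs miR-221 and miR-222 carry 1 shared seed, the stretch from base 2 to base 8 that does most of the pairing with a target. The 2 mature sequences are shown from RefSeq (GRCh38.p14), with the seed in capitals; they lie on the minus strand at chrX:45746180-45746202 and chrX:45747036-45747056. The host of this pair, MIR222HG, was not analysed here.
miR-221-3p: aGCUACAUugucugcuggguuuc
miR-222-3p: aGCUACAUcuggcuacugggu

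Of the 51 microRNA host genes, 39 had a start and a strand in the RefSeq tables, and 38 of those held at least 1 listed microRNA on the same strand. Of the 102 mature microRNAs found inside member genes, 0 had the seed of miR-221 and miR-222. Mature microRNAs inside microRNA hosts with a called probe set follow, with the seed in capitals, to show which small RNAs these transcripts can yield.
miR-22-3p (in MIR22HG, chr17:1713914-1713935, minus strand): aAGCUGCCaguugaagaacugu
miR-23a-3p (in MIR23AHG, chr19:13836595-13836615, minus strand): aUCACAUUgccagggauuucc
miR-27a-3p (in MIR23AHG, chr19:13836447-13836467, minus strand): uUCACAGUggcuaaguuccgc
miR-24-3p (in MIR23AHG, chr19:13836289-13836310, minus strand): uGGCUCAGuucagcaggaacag
miR-210-3p (in MIR210HG, chr11:568112-568133, minus strand): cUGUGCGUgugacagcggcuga
miR-100-5p (in MIR100HG, chr11:122152275-122152296, minus strand): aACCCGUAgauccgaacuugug
let-7a-5p (in MIR100HG, chr11:122146568-122146589, minus strand): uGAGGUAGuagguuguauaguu
miR-125b-5p (in MIR100HG, chr11:122099809-122099830, minus strand): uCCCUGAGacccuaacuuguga
miR-675-5p (in H19, chr11:1996800-1996822, minus strand): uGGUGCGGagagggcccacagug

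The values of a probe set could not be tied to 1 gene in every case. Of the 188 probe sets, 111 were listed under the host alone, 62 under the host and small RNAs inside it, and 15 under the host and another longer gene, such as MATR3 for 9 of the 10 SNHG4 probe sets. In the second case the host is named below, and in the third both genes are named. Of the 188, 19 had the suffix x_at, which marks probes that can bind several transcripts.

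Across all arrays, medians lay between 7.59 and 7.66 log2 units, and arrays of the same group correlated across probe sets with r from 0.9953 to 0.9980, against 0.9821 to 0.9858 for arrays of different groups; probe sets are not independent replicates. RNA integrity was read as the log2 signal at the 3' end less that at the 5' end of a control gene. For ACTB it was 0.33 to 0.39 in mimic and 0.29 to 0.36 in control arrays (exact permutation test, two-sided p = 0.30). For GAPDH it was 0.02 to 0.04 in mimic and -0.05 to 0.02 in control arrays, without overlap (exact permutation test, two-sided p = 0.10, the smallest p that 3 against 3 can give). The part of RNA integrity in the results below was not tested. Of 8 genes listed as markers of basal mammary epithelium, 5 had a probe set listed under that gene alone (KRT14, KRT5, ITGB4, EGFR and CDH1). KRT17, TP63 and KRT6A had none and were not read. All 5 that were read fell, with summed levels of 56.7 to 57.3 log2 units in mimic and 63.2 to 63.5 in control arrays. KRT14 averaged 10.88 in mimic and 13.11 in control arrays. The part of this fall in the results below was not tested.

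Both directions were found among the host and nuclear RNAs. By limma with Benjamini-Hochberg adjustment over all probe sets, 38 of 188 probe sets passed an adjusted p of 0.05, 22 higher and 16 lower in the mimic arrays. Over all probe sets tested, 24.8% passed, 11.6% higher and 13.1% lower, against 20.2% of these. At least 1.5-fold differences that passed were found at 7 probe sets that rose and 3 that fell, against 6.57% of all probe sets (2.46% higher and 4.11% lower). By class, 18 of 53 snoRNA host probe sets (34.0%), 12 of 97 microRNA host probe sets (12.4%) and 8 of 38 of the other noncoding RNAs (21.1%) passed. Of the microRNA host probe sets, 33 of 97 had a mean above the median of all probe sets, as did 36 of 53 of the snoRNA hosts and 27 of 38 of the other RNAs. Above that median, 16 of 36 snoRNA host, 9 of 33 microRNA host and 7 of 27 other probe sets passed, where 38.4% of all such probe sets did (16.5% higher and 21.9% lower). Below it, 11.1% of all probe sets passed, against 2 of 17 snoRNA host, 3 of 64 microRNA host and 1 of 11 other probe sets. These shares are descriptions and the classes were not tested against each other or against the rest. The median difference, mimic minus control on the log2 scale, was -0.01 for snoRNA hosts, 0.04 for microRNA hosts, 0.07 for the other RNAs and 0.03 for all probe sets.

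**Figure D1:**
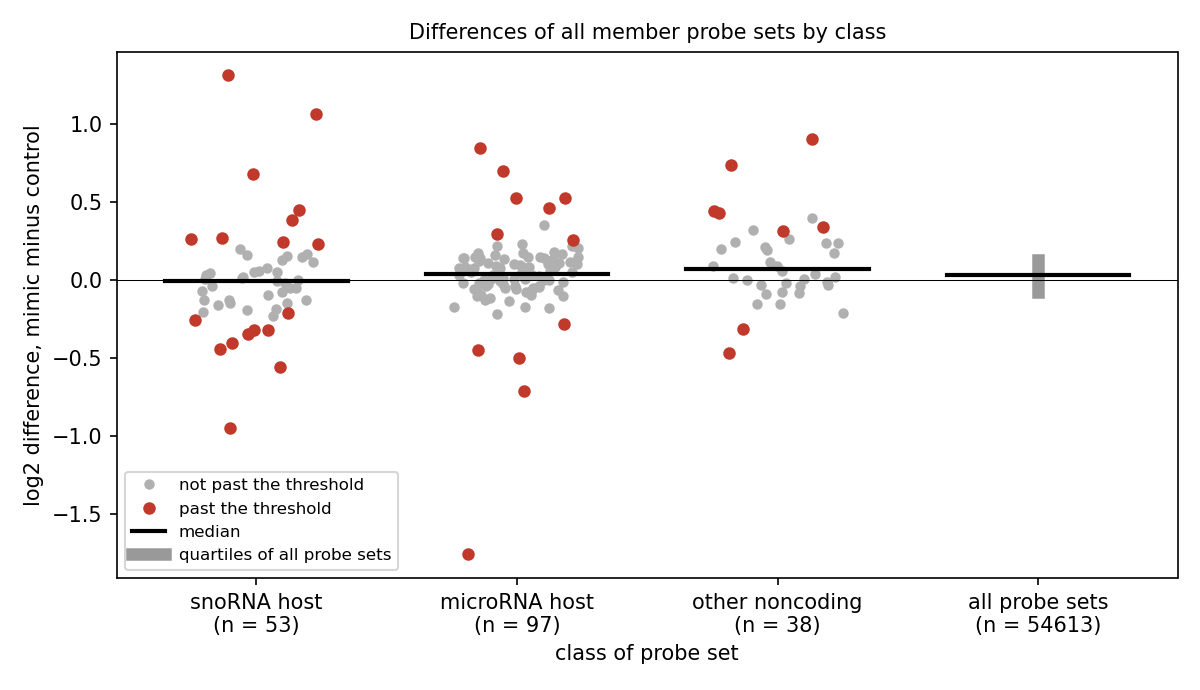
Log2 difference (mimic minus control, y axis) of each member probe set by class (x axis), with probe sets past the threshold in red, class medians as black lines, and the median and quartiles of all 54613 probe sets at the right. The 9 higher and 9 lower snoRNA host probe sets lie on both sides of 0, and the lowest point, at -1.76, is the probe set listed under MIR4435-2HG and CYTOR.

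Among the snoRNA hosts, SNHG12 rose most and DANCR fell most. Of the 27 genes, 7 had a probe set that rose, 7 had one that fell, and SNHG12 had both; the other 14 had none past the threshold. Of all 21357 gene symbols, 38.0% had at least 1 probe set past it, 18.4% one that rose and 20.3% one that fell, against 13 of these 27. The 9 probe sets that rose belonged to SNHG12, SNHG6, SNHG7, EPB41L4A-AS1, SNHG28, GAS5 and SNHG17. The 9 that fell belonged to DANCR, SNHG33, SNHG12, SNHG29, SNHG4, SNHG8 and SNHG15. In bulk RNA, fewer cells that express a transcript and less of it per cell cannot be told apart.

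SNHG12 is listed as the host of the box H/ACA snoRNAs SNORA16A, SNORA44 and SNORA61, which guide pseudouridylation. At probe set 223774_at it measured 10.50, 10.72 and 10.61 in the mimic arrays, against 9.26, 9.35 and 9.28 in the control arrays. Every mimic array was higher than every control array, by 2.48-fold on average (log2 difference 1.31 ± 0.07 SE, limma adjusted p = 2.1e-07). At 223773_s_at the values were 11.85, 11.97 and 12.04 in the mimic arrays, against 10.84, 10.88 and 10.95 in the control arrays. That probe set also separated the groups, by 1.06 ± 0.07 (SE, limma adjusted p = 8.16e-07). The remaining SNHG12 probe set, 228990_at, went the other way, with 8.87, 9.06 and 9.26 in the mimic arrays and 9.38, 9.56 and 9.57 in the control arrays. It fell by 0.44 on the log2 scale (limma adjusted p = 0.00556). Among the 43 member genes with several probe sets, SNHG12 alone had calls in both directions.

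DANCR, also named SNHG13, is a noncoding RNA known for holding back the differentiation of epidermal progenitor cells. Its single probe set measured 11.09, 11.10 and 11.07 in the mimic arrays, against 12.01, 12.12 and 11.98 in the control arrays. The mimic arrays hardly differed from each other and were all below the control arrays, with the control 1.93-fold higher (log2 difference -0.95 ± 0.06 SE, limma adjusted p = 8.86e-07).

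SNHG6, the host of SNORD87, measured 12.98, 13.14 and 13.18 in the mimic arrays, against 12.42, 12.48 and 12.37 in the control arrays. It was 1.60-fold higher in the mimic arrays, which did not overlap the control arrays (limma adjusted p = 3.35e-05). SNHG7, the host of SNORA17A and SNORA17B, measured 12.14, 12.21 and 12.22 in the mimic arrays, against 11.67, 11.81 and 11.76 in the control arrays at 229050_s_at. It rose by 0.45 ± 0.06 (SE) on the log2 scale there, while its other probe set, with a difference of -0.07, did not pass. EPB41L4A-AS1, read in the antisense direction beside EPB41L4A, measured 11.98, 12.16 and 12.18 in the mimic arrays, against 11.67, 11.72 and 11.77 in the control arrays at 225698_at. It rose by 0.39 ± 0.07 (SE, limma adjusted p = 0.00194) there and did not pass at its other probe set, where the difference was -0.15.

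GAS5, named for its build-up in growth-arrested cells, holds the snoRNAs SNORD44, SNORD47, SNORD74 and others in its introns. At 224741_x_at it measured 14.17, 14.21 and 14.25 in the mimic arrays, against 13.93, 13.95 and 13.95 in the control arrays. Both x_at probe sets rose, by 0.26 and 0.23 on the log2 scale, with limma adjusted p-values of 0.00680 and 0.0157. The other 3 GAS5 probe sets did not pass, and their differences ran from -0.23 to 0.08, so the rise was found at x_at probe sets alone. SNHG1, the host of SNORD22 and SNORD25 to SNORD31, measured 11.15, 11.34 and 11.46 in the mimic arrays, against 11.41, 11.46 and 11.46 in the control arrays. Its groups overlapped, and the difference of -0.13 ± 0.08 (SE) did not pass (limma adjusted p = 0.295).

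SNHG33 fell on both of its probe sets. At 236798_at it measured 7.23, 7.64 and 7.56 in the mimic arrays, against 8.18, 7.89 and 8.03 in the control arrays, a fall of 0.56 ± 0.11 (SE, limma adjusted p = 0.00276). The other probe set had a difference of -0.22. SNHG8 fell by 0.32, SNHG15 fell by 0.26 and SNHG28 rose by 0.27 on the log2 scale, each at its single probe set. SNHG29 fell by 0.41 at 1 of 3 probe sets, and its others, with differences of 0.003 and 0.05, did not pass. SNHG17 rose by 0.24 at 1 of 3 probe sets, and its others, with differences of 0.13 and 0.15, did not pass. SNHG4, the host of the SNORA74 snoRNAs at the start of MATR3, had 2 of 10 probe sets lower, at -0.32 for one listed under SNHG4 alone and at -0.35 for one shared with MATR3, a nuclear matrix protein gene. The other 8, all shared with MATR3, ran from -0.13 to 0.11 and did not pass. Among hosts with high signal that did not pass, SNHG5 had a difference of 0.17 (limma adjusted p = 0.0787), SNHG32 of -0.10 and the 2 SNHG16 probe sets of -0.19 and -0.08. Over the 35 snoRNA host probe sets that did not pass, differences ran from -0.23 to 0.20.

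**Figure D2:**
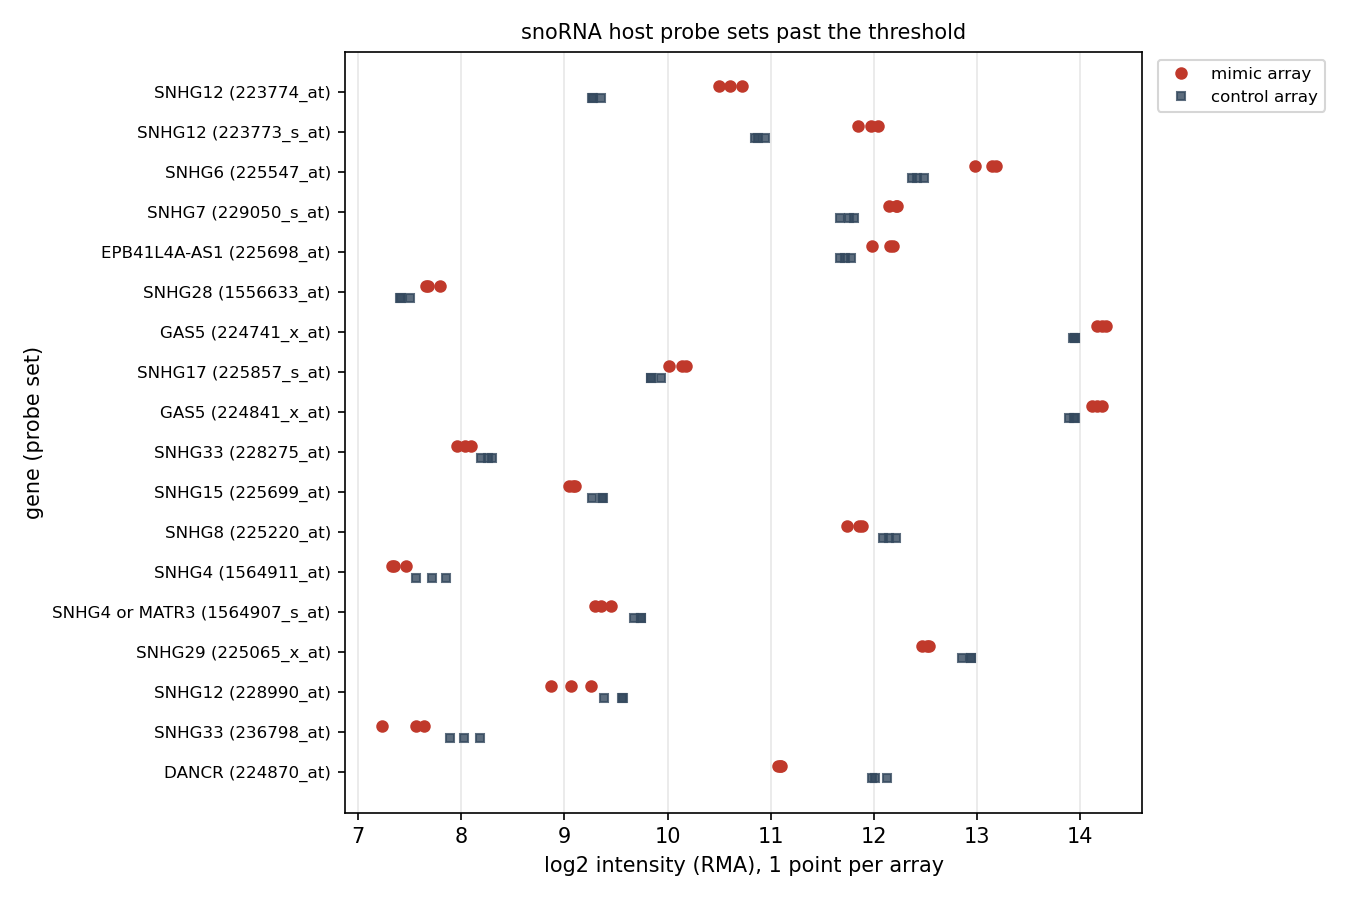
Log2 intensity (x axis) on every array of the 18 snoRNA host probe sets past the threshold (y axis, ordered by difference); red circles are the 3 mimic arrays and dark squares the 3 control arrays. SNHG12 appears both at the top and near the bottom, with probe set 223774_at near 10.6 in mimic and 9.3 in control arrays, and 228990_at at 9.06 against 9.50. The groups do not overlap for any of the 18, which were chosen as past the threshold. Over all 53 snoRNA host probe sets the groups did not overlap at 23, against 39.2% of all probe sets.

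Many snoRNA hosts and ribosomal protein genes share a terminal oligopyrimidine tract, a C at the transcript start followed by a run of pyrimidines, which couples their RNA to growth signalling. A tract was searched as a C followed by at least 4 bases that were each C or T, on the gene's strand alone, starting within 5 bases of the RefSeq start. It was present in 11 of 23 snoRNA hosts with a promoter in the table (47.8%), in 9 of 39 microRNA hosts (23.1%), in 53 of 70 ribosomal protein genes (75.7%) and in 5749 of all 27305 promoters (21.1%). It was found in 3 of 6 snoRNA hosts with a probe set that rose and in 4 of 6 with one that fell, SNHG12 being counted in both, against 5 of 12 with none past the threshold. RefSeq starts can lie some bases from the start used in these cells. The windows of 10 bases before to 20 bases from the start are shown for the hosts of both directions that hold the tract, with the tract in capitals (RefSeq, GRCh38.p14).
SNHG12 (rose on 2 probe sets, fell on 1; chr1:28581854-28581883, minus strand): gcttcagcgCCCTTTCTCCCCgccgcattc
SNHG7 (rose; chr9:136728165-136728194, minus strand): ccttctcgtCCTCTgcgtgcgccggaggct
SNHG17 (rose; chr20:38435309-38435338, minus strand): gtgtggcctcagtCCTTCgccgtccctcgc
DANCR (fell; chr4:52712384-52712413, plus strand): tgcgcgccccgCCCTTgcccagagtcttcc
SNHG4 (fell; chr5:139274091-139274120, plus strand): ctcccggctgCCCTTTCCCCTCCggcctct
SNHG8 (fell; chr4:118278752-118278781, plus strand): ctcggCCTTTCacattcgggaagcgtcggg

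Among the microRNA hosts, MIR22HG rose most and the probe set shared by MIR4435-2HG and CYTOR fell most. Of the 51 genes, 6 had a probe set that rose and 4 had one that fell, and 41 had none past the threshold, so 10 of 51 had a call, where 38.0% of all gene symbols did (18.4% higher and 20.3% lower). The hosts with a probe set that rose were MIR22HG, MIR210HG, MIR100HG, MIR23AHG, MIR570HG and MIR3936HG. Those with one that fell were MIR4435-2HG or CYTOR, H19, MIR1915HG and MIR550A3HG.

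MIR22HG, from which miR-22 is cut, measured 11.33, 11.46 and 11.53 in the mimic arrays, against 10.60, 10.53 and 10.63 in the control arrays. The groups were apart by several times their spread, 1.80-fold higher in the mimic arrays (log2 difference 0.85 ± 0.07 SE, limma adjusted p = 4.93e-06). MIR23AHG, the host of the miR-23a, miR-27a and miR-24-2 cluster, measured 10.01, 10.08 and 10.22 in the mimic arrays, against 9.50, 9.55 and 9.69 in the control arrays at 1555847_a_at. It rose by 0.52 ± 0.08 (SE, limma adjusted p = 0.000358) there, and its other probe set had a difference of 0.11 that did not pass.

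MIR210HG, the host of the hypoxia-induced miR-210, rose on both of its probe sets, which both lay below the median of all probe sets. At 230710_at it measured 7.49, 7.43 and 7.66 in the mimic arrays, against 6.56, 6.89 and 7.05 in the control arrays, a difference of 0.70 ± 0.11 (SE, limma adjusted p = 0.000808). The other probe set rose by 0.29 (limma adjusted p = 0.0486). The control arrays varied more among themselves than the mimic arrays at both, with SDs of 0.12 and 0.05 for the mimic, against 0.25 and 0.22 for the control.

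MIR100HG, the host of miR-100, let-7a-2 and miR-125b-1, measured 9.45, 9.55 and 9.89 in the mimic arrays, against 9.08, 9.04 and 9.20 in the control arrays. It rose by 0.52 ± 0.10 (SE, limma adjusted p = 0.00289) at 225381_at, with mimic replicate 3 the highest, and not at 241975_at, a dim probe set with a difference of -0.00. Other hosts of let-7 seeds (MIR99AHG, MIRLET7BHG, MIR4458HG and MIR4500HG) had 0 of 8 probe sets past the threshold in limma, with differences from -0.17 to 0.22; 2 of these 8 were above the median of all probe sets. Hosts of microRNAs with the shared miR-15 and miR-16 seed, DLEU2 and MIR497HG, had 0 of 11, with 0 of these above that median, and the 3 hosts of miR-9 had 0 of 8, with 4 above it. Of all probe sets 24.8% passed, and 11.1% of those below the median, so nothing is read from these small counts. DLEU2 at 1564443_at measured 7.17, 7.11 and 7.23 in the mimic arrays, against 7.01, 7.05 and 7.03 in the control arrays; the groups did not overlap, but the difference of 0.14 did not pass (limma adjusted p = 0.130).

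The probe set with the largest difference of all 188, 225799_at, is listed under MIR4435-2HG and CYTOR, similar long noncoding RNA genes at separate places on chromosome 2. It measured 9.66, 9.76 and 9.71 in the mimic arrays, against 11.52, 11.44 and 11.45 in the control arrays, with the control 3.39-fold higher (log2 difference -1.76 ± 0.06 SE, limma adjusted p = 8.6e-09). Which of the genes fell cannot be told apart at this probe set. The 2 probe sets listed under MIR4435-2HG alone had differences of -0.18 and -0.02 and did not pass.

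H19, an imprinted RNA expressed from the maternal allele and the source of miR-675, fell on both of its probe sets, each with the suffix x_at. At 224997_x_at it measured 8.51, 8.24 and 8.15 in the mimic arrays, against 8.80, 8.55 and 8.90 in the control arrays, a fall of 0.45 ± 0.11 (SE, limma adjusted p = 0.00916). At 224646_x_at it measured 8.29, 8.06 and 7.89 in the mimic arrays, against 8.79, 8.71 and 8.87 in the control arrays, a fall of 0.71 ± 0.10 (SE, limma adjusted p = 0.000204). The groups did not overlap at either, though they lay close at the first.

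MIR1915HG measured 5.76, 5.81 and 5.86 in the mimic arrays, against 6.45, 6.14 and 6.34 in the control arrays at 239503_at, a dim probe set. Its other 2 probe sets did not pass. The difference was -0.18 at 1555923_a_at and 0.11, the other way, at 1555922_at, the brightest of them (means 10.47 in mimic and 10.37 in control arrays). MIR570HG measured 7.64, 7.78 and 8.14 in the mimic arrays, against 7.32, 7.33 and 7.54 in the control arrays at 1557293_at (limma adjusted p = 0.0134). This call was lost without control replicate 1 (limma adjusted p = 0.0598) and without control replicate 2 (limma adjusted p = 0.0561). The other 2 MIR570HG probe sets, also above the median of all probe sets, had differences of 0.002 and 0.006 and did not pass. MIR3936HG rose by 0.26 on the log2 scale at its single probe set. MIR550A3HG fell by 0.28 at 1 of 2 probe sets, and its other one had a difference of -0.10 that did not pass.

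Several well-studied hosts did not pass. MIR17HG, the host of a cluster of growth-promoting microRNAs, measured 7.51, 7.72 and 7.89 in the mimic arrays, against 7.58, 7.49 and 7.75 in the control arrays, a difference of 0.10 ± 0.10 (SE). MIR31HG measured 7.87, 7.71 and 7.81 in the mimic arrays, against 7.91, 7.76 and 8.06 in the control arrays, a difference of -0.12 ± 0.08 (SE). MIR155HG measured 4.44, 4.41 and 4.56 in the mimic arrays, against 4.54, 4.35 and 4.40 in the control arrays (the dimmest probe set of each array lay between 3.67 and 3.72). The groups overlapped for each of these 3 hosts. MIR205HG, the host of an epithelial microRNA, had a difference of 0.23 (limma adjusted p = 0.127). Over the 85 microRNA host probe sets that did not pass, differences ran from -0.22 to 0.35.

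**Figure D3:**
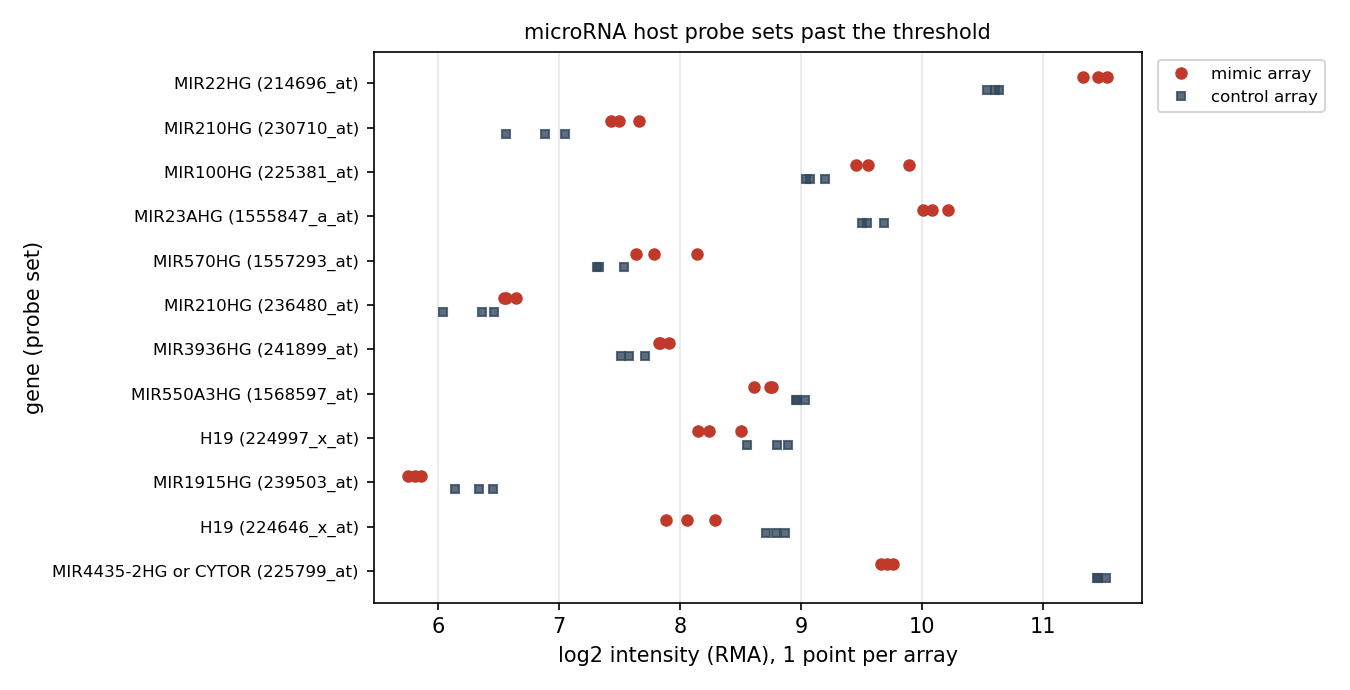
Log2 intensity (x axis) on every array of the 12 microRNA host probe sets past the threshold (y axis, ordered by difference); red circles are the 3 mimic arrays and dark squares the 3 control arrays. MIR22HG is at the top with mimic arrays from 11.33 to 11.53, and the probe set shared with CYTOR is at the bottom with mimic arrays from 9.66 to 9.76 and control arrays from 11.44 to 11.52.

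MALAT1 and NEAT1, neighbouring genes on chromosome 11, had mostly positive differences, with a wide spread among the mimic arrays. All 12 MALAT1 and 8 of 9 NEAT1 probe sets had a positive difference, and 2 and 4 of them rose. Of all probe sets, 32090 of 54613 had a positive difference and 11.6% rose. All 12 MALAT1 and 8 of 9 NEAT1 probe sets were above the median of all probe sets. Above it, 14411 of 27306 had a positive difference and 16.5% rose. The probe sets of a gene share the same arrays and are not separate evidence.

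MALAT1 at 224558_s_at measured 10.84, 11.03 and 11.33 in the mimic arrays, against 10.09, 10.10 and 10.31 in the control arrays. It rose by 0.90 ± 0.11 (SE, limma adjusted p = 0.000125), and the groups did not overlap. At 223577_x_at it measured 10.30, 10.62 and 10.99 in the mimic arrays, against 10.10, 10.21 and 10.32 in the control arrays. The groups overlapped there, and the call (limma adjusted p = 0.0452) was lost under 7 other settings, where the limma adjusted p was 0.0517 to 0.158. At 1558678_s_at MALAT1 measured 13.76, 13.96 and 14.19 in the mimic arrays, against 13.73, 13.95 and 13.72 in the control arrays, and the difference of 0.17 ± 0.11 (SE) did not pass. Of the 12 MALAT1 probe sets, 7 had the suffix x_at.

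NEAT1 is listed together with MIR612, a microRNA annotated inside it. At 214657_s_at it measured 11.01, 11.26 and 11.65 in the mimic arrays, against 10.42, 10.48 and 10.81 in the control arrays, a rise of 0.74 ± 0.15 (SE, limma adjusted p = 0.00316). At 224566_at it measured 13.11, 13.26 and 13.41 in the mimic arrays, against 12.72, 12.80 and 12.95 in the control arrays, a rise of 0.44 ± 0.09 (SE, limma adjusted p = 0.00315). The groups did not overlap at either. At 234989_at it measured 13.78, 13.89 and 14.09 in the mimic arrays, against 13.54, 13.69 and 13.81 in the control arrays. That difference, 0.24 ± 0.09 (SE), did not pass (limma adjusted p = 0.0898) but did under 6 other settings (adjusted p from 0.0201 to 0.0490).

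Mimic replicate 1 was the lowest and mimic replicate 3 the highest of the mimic arrays at all 21 MALAT1 and NEAT1 probe sets. The same order held at 28.7% of all probe sets and at 27 of 53 snoRNA host probe sets (50.9%). Without mimic replicate 1, 16 of the 21 rose, where 6 did with all arrays. Without mimic replicate 3, 4 rose and the median difference was 0.11, against 0.24 with all arrays. Without control replicate 1, and likewise without control replicate 2, 3 rose. The part of this array difference in the MALAT1 and NEAT1 values was not tested beyond these counts.

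**Figure D4:**
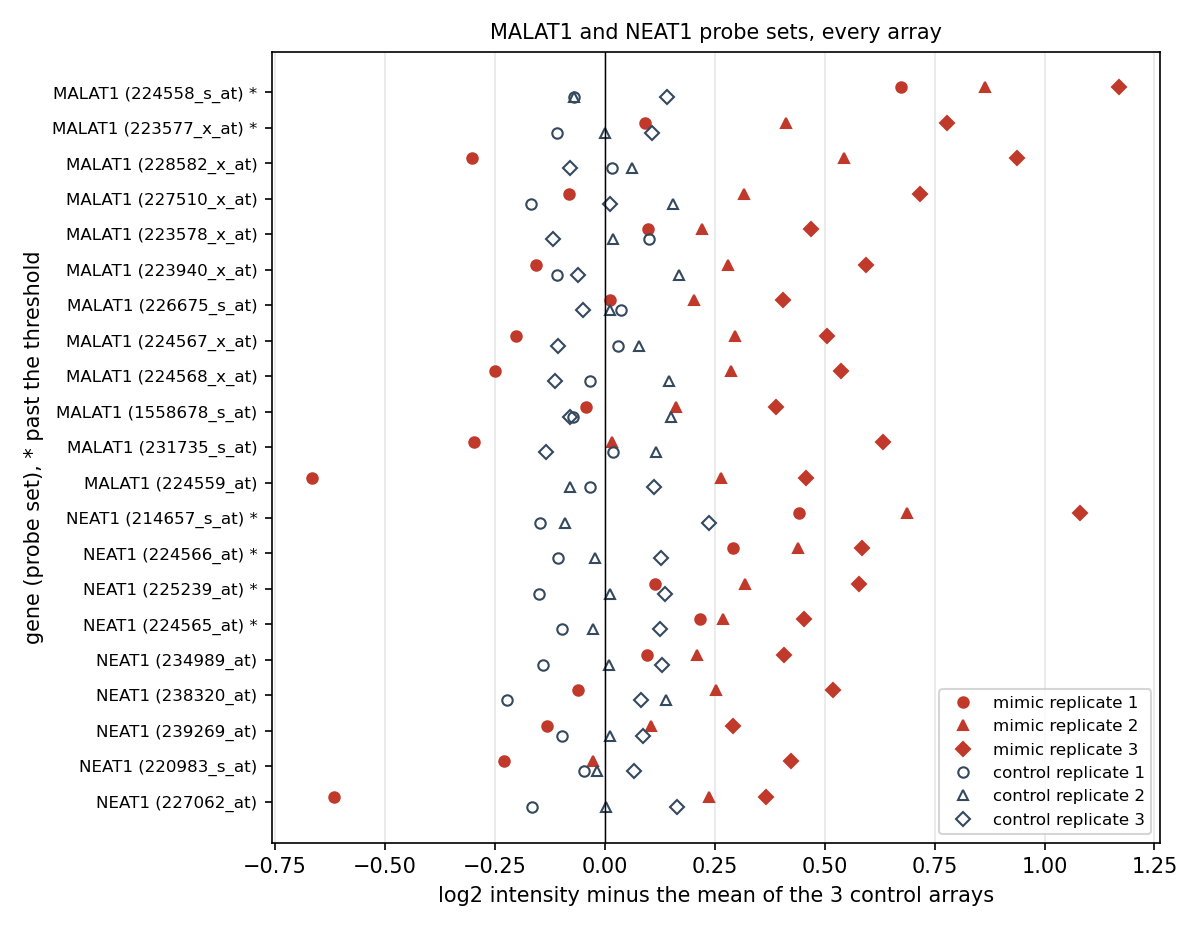
Log2 intensity minus the mean of the 3 control arrays (x axis) for every array at the 12 MALAT1 and 9 NEAT1 probe sets (y axis, an asterisk marks those past the threshold); filled red symbols are mimic replicates and open symbols control replicates. Mimic replicate 1 (circles) is the lowest and mimic replicate 3 (diamonds) the highest filled symbol in all 21 lines.

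DLEU1, a transcript of the region on chromosome 13 that is often deleted in leukaemia, measured 9.07, 9.09 and 9.07 in the mimic arrays, against 9.53, 9.57 and 9.54 in the control arrays. Arrays of the same group hardly differed, and the fall of 0.47 ± 0.06 (SE) passed (limma adjusted p = 0.000109). DLEU2, transcribed from the same region, had 0 of 10 probe sets past the threshold in limma, all below the median of all probe sets, where 11.1% passed. MEG3, an imprinted RNA, had 1 of 10 probe sets lower, at 226210_s_at. There it measured 5.84, 5.77 and 5.76 in the mimic arrays, against 6.08, 6.27 and 5.98 in the control arrays. This probe set lay below the median of all probe sets, as did all but 1 of the 10, and below that median 11.1% of all probe sets passed. At 226211_at the MEG3 mean was 7.98 ± 0.16 with the mimic, against 8.02 ± 0.02 with the control (SD, n = 3 each), and the groups overlapped. TUG1 had 0 of 6 past the threshold in limma, with 5 of the 6 above the median, where 38.4% of all probe sets passed. At 222244_s_at TUG1 measured 11.49, 11.58 and 11.71 in the mimic arrays, against 11.64, 11.63 and 11.56 in the control arrays, a difference of -0.02 ± 0.07 (SE).

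The groups did not overlap at 54 of the 188 probe sets, against 39.2% of all probe sets. The mimic arrays were the higher at 29 of them (20.9% of all probe sets) and the lower at 25 (18.2%).

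Lists of protein-coding genes tied to these RNAs were read for context, each gene at its probe set with the highest mean among those listed under 1 gene. Over all 19775 genes read so, 30.4% passed, 14.1% higher and 16.3% lower. Among those above the median of all probe sets, 5328 of 13214 passed. Of 16 measured proteins of snoRNA particles and their assembly, all above that median, 8 fell and 1 rose (median -0.24). NOLC1, a nucleolar chaperone of these particles, fell by 1.79 and RUVBL2, an ATPase of their assembly, by 0.71 on the log2 scale, while SNU13, which binds box C/D snoRNAs, rose by 0.33. Of 14 measured protein-coding snoRNA hosts, 13 of them above that median, 2 fell and 1 rose (median -0.09). The nucleolin gene NCL fell by 0.40, the ribosomal protein gene RPL3 fell by 0.24, and the translation gene EIF4G2 rose by 0.31. When probe sets listed also under snoRNAs inside the gene were read too, 27 of the 33 hosts were measured, 8 fell and 3 rose, where 30.6% of 19814 genes passed. All 27 lay above the median of all probe sets, where 5371 of 13286 genes passed. DKC1, the pseudouridine synthase of H/ACA particles, then had a difference of -0.71 and NOP56 of -0.69, while EIF4A2 rose by 0.43 and TAF1D by 0.35. All 18 listed proteins of snoRNA particles, DKC1 and NOP56 among them, were measured in this reading, and 10 fell and 1 rose (median -0.31).

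Of 21 protein-coding microRNA hosts, 9 fell and 4 rose (median -0.04), where 30.4% of all genes passed. Of the 21, 19 lay above the median of all probe sets, where 5328 of 13214 genes passed. The imprinted gene MEST (host of miR-335) fell by 1.38 and the condensin gene SMC4 (host of miR-15b and miR-16-2) by 0.89, while the phosphatase gene CTDSP2 (host of miR-26a-2) rose by 0.66 and AOPEP (host of miR-23b, miR-27b and miR-24-1) by 0.40. Of 14 measured paraspeckle proteins, all above that median, 5 fell and 0 rose (median -0.10). The chromatin remodeller SMARCA4 fell by 0.79 and TAF15 by 0.34, and at the probe set read for each, the core proteins SFPQ (0.03), PSPC1 (0.13) and NONO (-0.18) did not pass. Over all their probe sets, 2 of 3 fell for NONO, 1 of 5 rose for SFPQ and 0 of 5 passed in limma for PSPC1. Of 9 measured factors of nonsense-mediated decay, the pathway that degrades many spliced snoRNA host RNAs, 4 rose and 1 fell (median 0.09). All 9 lay above that median of all probe sets. SMG9 rose by 0.29 and RNPS1 by 0.21, RBM8A of the exon junction complex fell by 0.59, and the helicase UPF1 had a difference of -0.18 that did not pass, while the other of its 2 probe sets fell.

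Markers of other cell types were read as well. Of 4 luminal epithelial markers 2 fell, GATA3 by 0.48 and FOXA1 by 0.44 on the log2 scale. The other 2, ESR1 (0.14) and PGR (0.10), had positive differences that did not pass. Summed levels of the 4 were 34.35 to 34.53 in mimic and 35.01 to 35.36 in control arrays. Of 6 fibroblast markers 1 rose and 1 fell, with summed levels of 50.4 to 51.3 log2 units in mimic and 49.9 to 50.0 in control arrays. DCN rose, with means of 13.72 in mimic and 12.06 in control arrays, and 6 of its 7 probe sets were higher. LUM fell at a dim probe set, with means of 4.09 in mimic and 5.15 in control arrays. Of 4 endothelial markers 0 passed in limma (31.7 to 32.5 in mimic and 31.7 to 31.9 in control arrays). Of 4 measured blood markers 1 fell (33.8 to 34.0 in mimic and 34.8 to 34.9 in control arrays). It was CD14, with means of 8.80 in mimic and 9.96 in control arrays. The part of all these markers in the results was not tested.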

How the data were processed

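The deposited values were log2 intensities per probe set, normalized by the submitters with RMA per the submitters' processing notes. RMA sets the arrays to 1 common distribution, so a shift common to most transcripts cannot be seen. Samples were grouped by the labels, as 3 biological replicates per group; the array number and design limit precision. Probe sets were matched to genes through the platform annotation, which can be old, and 81 of the 83 member symbols were current in RefSeq. All 54613 non-control probe sets were fitted with limma 3.58.1 in R 4.3.3 (lmFit, eBayes), with Benjamini-Hochberg adjustment over all of them and a threshold of 0.05. No filter on dim probe sets was applied. On simulated data in which 200 of the 54613 probe sets were changed, the fit recovered 64% of log2 changes of 0.5 and 99% of those of 1. The simulated noise was independent between probe sets, and far fewer were changed than the 24.8% that passed in the real data. These recovered shares need not hold for the real arrays. Tables, exact tests and figures used Python 3.11.15, scipy 1.17.1 and matplotlib 3.10.9. Named probe sets were the brightest 1 of each of 16 well-known members and the 16 further called ones with the largest differences, and calls beyond these were named after their values were seen. The member genes and lists were chosen with earlier results of these data known. Alternatives were other normalizations, thresholds and models, each array left out, and the replicate number as a block. Same-numbered samples did not deviate together (correlations of -0.11, 0.08 and 0.08), so the numbers were not read as pairs. Sequences came from RefSeq tables, where 66 of 83 member genes had a promoter entry.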

Additional observations from a re-analysis of the deposited data

How the results depend on the processing

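Every member call measured under an alternative normalization, model, filter or left-out array kept its direction. These refits share most or all of the arrays, so a kept direction is not separate evidence. All 38 were measured except without the 40% dimmest probe sets (34) and without x_at probe sets (32). With an array left out, fewer of the 38 still passed, from 29 (without control replicate 1) and 30 (without mimic replicate 2) to 36 (without mimic replicate 1). The number of calls depended on the setting. With array weights, 60 member probe sets passed (40 higher, 20 lower), among them 21 of microRNA hosts and 17 of the other noncoding RNAs. With only probe sets listed under 1 gene, 18 passed (10 higher, 8 lower): 7 of snoRNA hosts, 7 of microRNA hosts and 4 of the other RNAs; fewer probe sets were tested. At an adjusted p of 0.01, 4 of the other RNAs passed. Leaving out each array in turn gave 29 to 54 member calls, 14 to 21 for snoRNA hosts, 9 to 17 for microRNA hosts, 5 to 18 for the other RNAs (18 without mimic replicate 1, 5 without control replicate 1 or 2) and 3 to 16 for MALAT1 and NEAT1. With the replicate block, 41 passed (25 higher, 16 lower). Differences near 0 changed sign. MIR155HG was -0.0097 with array weights and -0.0035 to 0.095 with an array left out, where its lowest value was without mimic replicate 3. TUG1 at 222244_s_at was 0.064 after quantile normalization, 0.034 after removal of a loess trend and -0.076 to 0.037 with an array left out. MEG3 at 226211_at was -0.11 to 0.052 with an array left out. Another scaling moved the split of calls: over all probe sets it was 7109 higher and 6943 lower after quantile normalization, and 5134 higher and 7698 lower with arrays centred on their medians. The cause was not tested.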
